A study of Homo sapiens with 6 samples.

Results

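Transcripts of 43 genes that repair DNA by homologous recombination, the Fanconi pathway or mismatch repair, or that signal damage to these pathways, were measured in THP-1 cells, a human monocytic leukaemia line. The genes were taken by symbol from a list of the pathways' components, and all 43 were found among the 58395 genes of the deposited count files. Monensin, a polyether ionophore that exchanges sodium ions for protons across membranes, was given at 1 µM for 16 h to 3 samples, and 3 samples were left without exposure. All 6 samples are of this single cell line, grown in RPMI medium with serum and glutamine, and the labels name no vehicle for the untreated cells, so an effect of a vehicle and one of monensin cannot be told apart. Nothing in the labels says that the 3 samples of a group came from separate cultures, so p-values speak only of how far these 6 samples scatter, and that scatter may be technical.

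Homologous recombination mends double-strand breaks by copying an intact sister chromatid. Broken ends are trimmed to single strands, BRCA1, PALB2 and BRCA2 load a recombinase on them, and helicases and nucleases untangle the joined molecules. The Fanconi pathway serves crosslinks between strands: a core complex and the ubiquitin-conjugating enzyme UBE2T modify the FANCD2 and FANCI pair, which calls in nucleases and recombination factors. Mismatch repair removes wrongly paired bases left by the replication machinery. Many of these genes are known to be transcribed most in S phase, when sister chromatids arise.

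The 6 libraries held 22975888 to 24774546 gene counts after monensin and 24159573 to 25710513 in untreated cells, and no 2 libraries were the same. Reads assigned to no gene made up 21.2% to 22.0% of tallied alignments in monensin libraries and 19.1% to 19.8% in untreated libraries. All 10 monocytic markers checked were above 1 CPM (counts scaled to a common library total) in every library, while the 4 epithelial and 4 erythroid markers were at 0 in every library and none of the 5 T cell markers passed 1 CPM throughout.

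The promoters of 6 of these genes are shown first because they hold, or lack, a short sequence found in 24 of the 39 of these genes with a promoter window. Each stretch runs from 100 bases before the annotated start of transcription to 29 bases after it, 5′ to 3′ on the gene's own strand, and comes from RefSeq on GRCh38.p14. Capitals mark an E2F type motif, searched on both strands as TTGGCGC, as TTGCCGC, as TTCGCGC and as TTCCCGC. E2F factors are transcription factors of S phase genes. EXO1, BRIP1 and XRCC2 had the 3 lowest log2 fold changes of the 43, BRCA1 is a central gene of the pathway, FANCF missed the test's threshold and MUS81 rose.
EXO1: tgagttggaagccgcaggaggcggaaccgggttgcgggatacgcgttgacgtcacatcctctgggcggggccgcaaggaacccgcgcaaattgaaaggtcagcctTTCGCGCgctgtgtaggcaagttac
BRIP1: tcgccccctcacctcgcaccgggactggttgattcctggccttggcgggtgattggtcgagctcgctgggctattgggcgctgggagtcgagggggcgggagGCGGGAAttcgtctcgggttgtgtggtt
XRCC2: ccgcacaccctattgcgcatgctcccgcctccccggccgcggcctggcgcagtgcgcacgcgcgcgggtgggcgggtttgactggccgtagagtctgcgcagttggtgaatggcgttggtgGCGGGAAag
BRCA1: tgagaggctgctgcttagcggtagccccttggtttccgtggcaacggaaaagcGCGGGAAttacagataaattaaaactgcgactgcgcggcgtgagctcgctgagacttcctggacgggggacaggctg
FANCF: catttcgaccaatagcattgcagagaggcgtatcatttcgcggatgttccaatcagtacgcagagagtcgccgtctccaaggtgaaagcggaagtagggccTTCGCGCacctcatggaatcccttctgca
MUS81: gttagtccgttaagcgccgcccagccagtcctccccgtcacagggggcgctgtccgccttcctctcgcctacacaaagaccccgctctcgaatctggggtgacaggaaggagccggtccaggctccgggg
The stretches lie at chr1:241848104-241848233 on the plus strand (EXO1), chr17:61863499-61863628 on the minus strand (BRIP1), chr7:152676112-152676241 on the minus strand (XRCC2), chr17:43125335-43125464 on the minus strand (BRCA1), chr11:22625794-22625923 on the minus strand (FANCF) and chr11:65860333-65860462 on the plus strand (MUS81). EXO1 and FANCF carry TTCGCGC, while BRIP1, XRCC2 and BRCA1 carry TTCCCGC, read on the opposite strand and so printed as its reverse complement. The MUS81 stretch holds none of the 4 motifs.

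Monensin lowered 40 of the 43 transcripts and raised 2, by edgeR's quasi-likelihood test with Benjamini-Hochberg adjustment over all 16542 genes tested, at an adjusted p under 0.05. Of all tested genes, 33.7% were called lowered and 34.1% raised. All 43 passed the filter on low counts. At least 2-fold falls were called for 19 of the 43, against 3.83% of all tested genes, and at least 2-fold rises for 0, against 9.41%. The median log2 fold change of the 43 was -0.85, and that of all tested genes was 0.02. In CPM the monensin libraries all lay below the untreated libraries for 41 genes, a pattern that 35.2% of tested genes showed, and all above them for MUS81 and RAD51B; groups apart in either direction were seen in 71.1% of tested genes. The summed level of the 43 transcripts ran from 1602 to 1633 CPM in monensin libraries and from 2904 to 3053 CPM in untreated libraries. In bulk RNA, fewer cells that express a gene and less RNA per cell cannot be told apart.

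**Figure D1:**
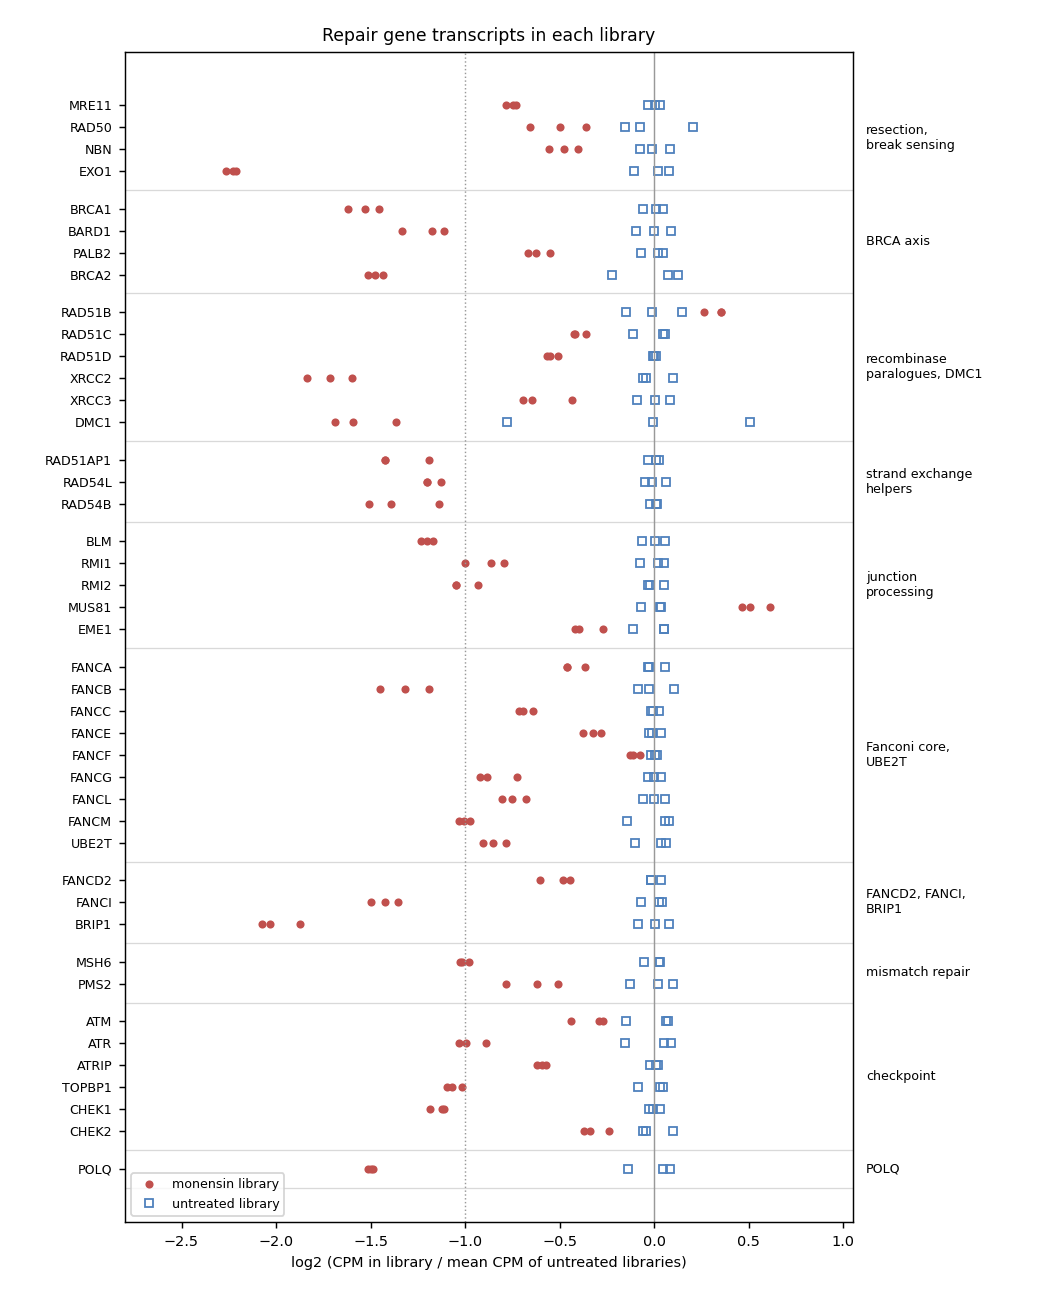
Level of each of the 43 transcripts in every library, as log2 of its CPM over the mean of the 3 untreated libraries (x axis), with genes grouped by role down the page. Filled circles are the 3 monensin libraries and open squares the 3 untreated libraries; 41 genes have every circle left of every square, and RAD51B and MUS81 have every circle to the right.

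Markers of proliferation moved with this result. Of 20 such markers, 19 were lowered and CDT1 was not called, with a median log2 fold change of -1.27. Their summed level was 3429 to 3622 CPM in monensin libraries and 7572 to 7875 CPM in untreated libraries, and all 20 were above 1 CPM in every library. MKI67, a marker of cycling cells, averaged 217 ± 5.59 CPM after monensin and 617 ± 53.4 CPM in untreated cells (SD, n = 3 each). PCNA, the sliding clamp of replication, averaged 97.0 ± 3.02 CPM after monensin and 208 ± 5.39 CPM in untreated cells. The part of cell cycle stage or proliferation in the changes of the 43 genes was not tested.

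Among genes that sense breaks and trim their ends, all 4 fell. EXO1, an exonuclease of resection and mismatch repair, had 25.2, 25.0 and 24.3 CPM in the monensin libraries, against 109, 123 and 119 CPM in the untreated libraries. This 4.70-fold fall (log2 fold change -2.23, SE 0.06, adjusted p = 5.72e-14) placed EXO1 lowest of the 43 under each of the 15 settings fitted, and 0.290% of all tested genes had a lower log2 fold change. EXO1 lies on chromosome 1 from 241847967 to 241895148 on GRCh38. MRE11, RAD50 and NBN form the complex that first binds a broken end. MRE11, its nuclease, had 51.6, 50.4 and 52.3 CPM after monensin and 84.8, 86.8 and 88.5 CPM in untreated cells, a log2 fold change of -0.75 (SE 0.05). NBN, which recruits the kinase ATM, changed by -0.48 (SE 0.05). RAD50, the ATPase that tethers ends, had only 72, 86 and 73 counts in monensin libraries and 99, 98 and 126 in untreated libraries (log2 fold change -0.50, SE 0.14). Of its 9771 exonic bases, 79.7% are shared with AC116366.3 on the same strand, and reads in such bases were assigned to neither gene, so the RAD50 level is uncertain. In a fit that takes out each library's trends on GC content and length, the RAD50 call was lost (log2 fold change -0.18, adjusted p = 0.269).

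The genes of the BRCA axis all fell, and 3 of 4 fell at least 2-fold. BRCA1, the ubiquitin ligase that promotes resection, had 76.4, 68.4 and 72.6 CPM in monensin libraries, against 201, 211 and 217 CPM in untreated libraries. Its log2 fold change was -1.53 (SE 0.05, adjusted p = 8.39e-13), and the groups lay far apart compared with the spread within each. BARD1, its obligate partner, averaged 23.4 ± 1.82 CPM after monensin and 53.8 ± 3.38 CPM in untreated cells (SD, n = 3 each). BRCA2, which delivers the recombinase, had 14.5, 14.9 and 14.1 CPM in monensin libraries and 34.5, 44.0 and 42.4 CPM in untreated libraries. Untreated library 1 was the lowest of the 3, and still more than 2-fold above each monensin library. PALB2, the bridge between BRCA1 and BRCA2, changed least of the 4, with 25.1 ± 1.02 CPM after monensin and 38.5 ± 1.60 CPM in untreated cells (log2 fold change -0.61, SE 0.06).

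The paralogues of the recombinase act as mediator complexes that steady its filament, and they did not move alike. XRCC2 had 18.0, 19.6 and 16.6 CPM in monensin libraries, against 56.9, 63.5 and 57.5 CPM in untreated libraries (log2 fold change -1.71, SE 0.07, adjusted p = 7.72e-12). RAD51C, RAD51D and XRCC3 fell by 0.40, 0.54 and 0.59 on the log2 scale (SE 0.06, 0.05 and 0.07). The XRCC3 gene shares 76.7% of its exonic bases with KLC1 on the opposite strand. RAD51B was called raised, with 6.08, 6.48 and 6.47 CPM in monensin libraries and 5.61, 5.02 and 4.57 CPM in untreated libraries (log2 fold change 0.32, SE 0.11, adjusted p = 0.0159). This call was lost without monensin library 2 (adjusted p = 0.053), without untreated library 3 (adjusted p = 0.0846) and with DESeq2 (adjusted p = 0.149). Over the settings fitted, its adjusted p ran from 0.000457 to 0.149, and its log2 fold change from 0.24 to 0.54. DMC1, a recombinase best known from meiosis, was near the limit of detection, with 9, 7 and 7 counts after monensin and 32, 21 and 13 in untreated cells (log2 fold change -1.53, SE 0.37, adjusted p = 0.00171).

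Helpers of strand exchange all fell at least 2-fold. RAD51AP1, which aids strand pairing, had 10.6, 12.4 and 10.6 CPM in monensin libraries and 28.9, 28.5 and 27.7 CPM in untreated libraries. RAD54L, a motor protein that remodels the joined strands, averaged 35.7 ± 1.06 CPM after monensin and 80.9 ± 3.19 CPM in untreated cells (SD, n = 3 each). RAD54B, a relative of RAD54L, had a log2 fold change of -1.33 (SE 0.12) from 62 to 86 counts per monensin library and 178 to 188 per untreated library. It shares 59.1% of its exonic bases with FSBP on the same strand, so its level is uncertain too.

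Genes that take joined molecules apart fell with the exception of MUS81. BLM, a helicase, and its partners RMI1 and RMI2 dissolve double junctions without cutting. BLM had 46.5, 45.4 and 47.5 CPM in monensin libraries, against 102, 111 and 107 CPM in untreated libraries (log2 fold change -1.20, SE 0.05). RMI1 and RMI2 fell by 0.88 and 1.01 on the log2 scale (SE 0.06 each). MUS81, the nuclease that cuts them, had 91.3, 94.1 and 101 CPM in monensin libraries and 67.8, 63.1 and 67.8 CPM in untreated libraries. Its rise of 0.53 on the log2 scale (SE 0.05, adjusted p = 2.61e-07) was called under every setting fitted, with values from 0.39 to 0.61. EME1, a partner with which MUS81 cuts, had 20.8, 21.1 and 23.0 CPM after monensin and 28.8, 25.7 and 28.9 CPM in untreated cells (log2 fold change -0.36, SE 0.07). MUS81 lies on chromosome 11 from 65857126 to 65867653 and shares 13.9% of its exonic bases with CFL1 on the opposite strand. CFL1 had 24702, 24618 and 25641 counts in monensin libraries and 27395, 24968 and 25897 counts in untreated libraries.

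**Figure D2:**
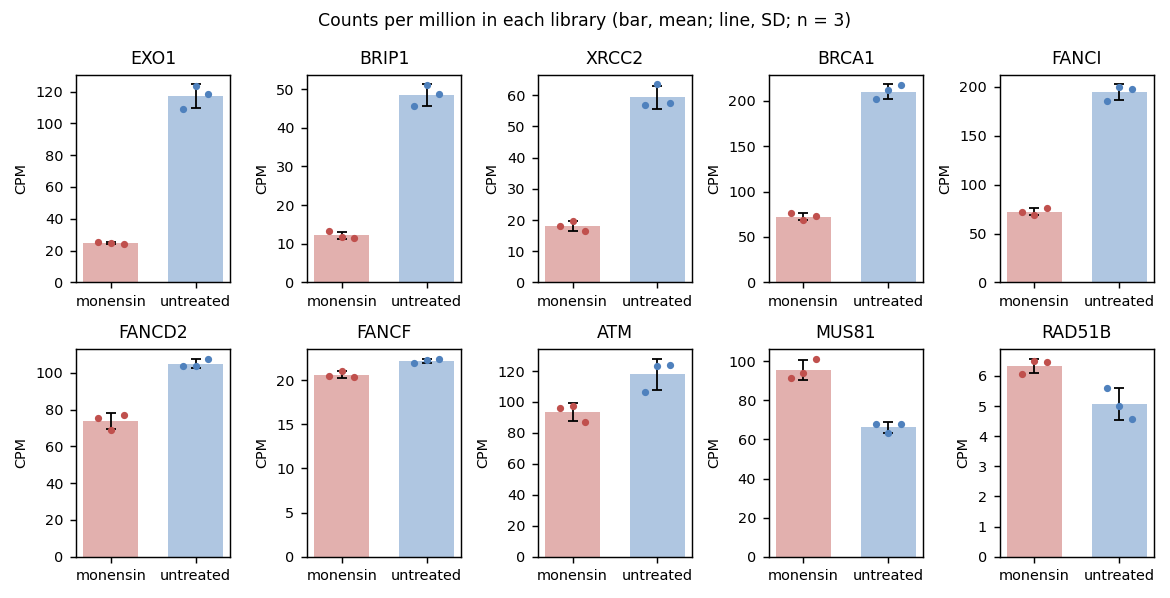
CPM (y axis, from 0, own scale per panel) of 10 of the genes in each library. Bars are means of 3 monensin (left) and 3 untreated (right) libraries, lines the SD and points the libraries; EXO1, BRIP1 and XRCC2 show the widest gaps, FANCF a narrow one, and MUS81 and RAD51B are higher after monensin.

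In the Fanconi core complex and its E2, 8 of 9 genes fell, 2 of them at least 2-fold. FANCB, encoded on the X chromosome, had 4.79, 5.24 and 4.37 CPM in monensin libraries and 11.3, 11.7 and 12.9 CPM in untreated libraries (log2 fold change -1.31, SE 0.10). FANCM, the helicase that anchors the complex to DNA, was 2.00-fold lower after monensin (SE 0.07 on the log2 scale). UBE2T, the conjugating enzyme, and FANCL, the ligase subunit, fell by 0.85 and 0.75 on the log2 scale (SE 0.06 each). FANCG, FANCC, FANCA and FANCE, structural subunits, had log2 fold changes of -0.84, -0.68, -0.43 and -0.33. FANCF, an adaptor of the complex, was not called: it had 20.5, 21.0 and 20.3 CPM in monensin libraries and 21.9, 22.3 and 22.4 CPM in untreated libraries (log2 fold change -0.11, SE 0.06, adjusted p = 0.129). In TPM, which also scales each count by exonic length, the same gene averaged 26.4 ± 0.917 after monensin and 24.9 ± 0.680 in untreated cells (SD, n = 3 each). The TPM scale shifted tested genes in general: the median log2 ratio of all tested genes was 0.21 in TPM and 0.02 in CPM, and that of FANCF was 0.09 in TPM, below this median. In TPM, 40 of the 43 genes were lower after monensin. The share of all tested genes lower in TPM was not computed, so nothing is read from this count. A gene's exonic length is the same in both groups and cancels from its ratio. The shift from CPM to TPM was therefore a shared offset by construction, with a median of 0.19 among the 43 and among all tested genes. With this offset, the small log2 ratios of RAD50, NBN, RAD51C, RAD51D, EME1, FANCA, FANCE, FANCD2, ATM and CHEK2 came over 1.5 times nearer to 0. It shows no weakening particular to these genes.

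Downstream of the core complex, FANCI, FANCD2 and BRIP1 fell by unequal amounts. FANCI had 72.3, 68.8 and 76.0 CPM in monensin libraries, against 185, 200 and 198 CPM in untreated libraries (log2 fold change -1.43, SE 0.05, adjusted p = 1.74e-12). FANCD2, which pairs with FANCI, had 75.1, 69.1 and 77.2 CPM after monensin and 104, 104 and 108 CPM in untreated cells (log2 fold change -0.51, SE 0.05). BRIP1, a helicase that binds BRCA1, had 13.2, 11.8 and 11.5 CPM in monensin libraries and 45.6, 51.1 and 48.7 CPM in untreated libraries. Its log2 fold change of -1.99 (SE 0.07, adjusted p = 1.74e-12) was the second lowest of the 43 under each setting.

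Both mismatch repair genes fell. MSH6, part of the dimer that recognises mismatches, had 102, 98.1 and 99.0 CPM in monensin libraries and 193, 204 and 204 CPM in untreated libraries (log2 fold change -1.01, SE 0.04, adjusted p = 1.77e-11). PMS2, which nicks the strand to be replaced, had 9.78, 9.04 and 8.05 CPM after monensin and 12.7, 14.1 and 14.9 CPM in untreated cells (log2 fold change -0.63, SE 0.09). Counts at PMS2 are uncertain because chromosome 7 holds near-identical copies: PMS2P1 alone had 320, 330 and 337 counts in monensin libraries and 292, 272 and 323 in untreated libraries.

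All 6 checkpoint genes fell. CHEK1, the kinase that holds the cell cycle when replication stalls, had 46.1, 46.4 and 44.1 CPM in monensin libraries, against 98.7, 103 and 100 CPM in untreated libraries (log2 fold change -1.14, SE 0.05). TOPBP1, which switches on ATR, averaged 128 ± 3.42 CPM after monensin and 268 ± 13.3 CPM in untreated cells (SD, n = 3 each). ATR, the kinase upstream of CHEK1, and its partner ATRIP fell by 0.97 and 0.60 on the log2 scale (SE 0.07 and 0.06). ATRIP shares 27.9% of its exonic bases with TREX1 on the same strand, and TREX1 had 0 counts in every library, so the ATRIP level leaves out reads in those bases. The other kinase arm changed less: CHEK2 had a log2 fold change of -0.32 (SE 0.06). ATM, the kinase that answers double-strand breaks, had 96.3, 97.7 and 87.0 CPM in monensin libraries and 106, 123 and 124 CPM in untreated libraries (log2 fold change -0.33, SE 0.06, adjusted p = 0.000200). In the fit that takes out GC and length trends, the ATM value was 0.00 (0.00235, SE 0.04, adjusted p = 0.959). POLQ, the polymerase of an end joining route that competes with recombination, had 37.5, 37.2 and 36.8 CPM after monensin and 95.4, 109 and 111 CPM in untreated cells, a log2 fold change of -1.50 (SE 0.06).

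The ratio of partner transcripts was taken in each library for 12 pairs whose proteins work together. CPM is not scaled by exonic length, so the level of a ratio is not one of transcript numbers, and only its difference between groups is read. The FANCD2 to FANCI ratio of CPM, on the log2 scale, was 0.05, 0.01 and 0.02 in monensin libraries. It was -0.83, -0.95 and -0.88 in untreated libraries, so the CPM values of the pair were near equal only after monensin. The MUS81 to EME1 log2 ratio averaged 2.14 ± 0.0112 after monensin and 1.25 ± 0.0357 in untreated cells (SD, n = 3 each). RAD51D to XRCC2 moved furthest, with log2 ratios of 0.93 ± 0.143 after monensin and -0.24 ± 0.0931 in untreated cells. The log2 ratio was higher after monensin by 0.86 for PALB2 to BRCA2 and by 0.73 for RAD51B to RAD51C, and the difference for BRCA1 to BARD1 was -0.33. The groups overlapped for RAD50 to MRE11, XRCC3 to RAD51C and RMI1 to RMI2. No share over other gene pairs was computed, so nothing is read from how many pairs lay apart. No test of these ratios was made; the smallest p of an exact permutation test on 3 libraries against 3 is 0.10. In the fit without GC and length trends, the FANCD2 to FANCI difference was 0.91 in place of 0.92, while that of ATR to ATRIP was -0.02 in place of -0.37. That fit also gave -0.58 in place of -0.19 for XRCC3 to RAD51C and 0.40 in place of 0.12 for RMI1 to RMI2. For RAD51D to XRCC2 it gave 0.91 in place of 1.175, level with FANCD2 to FANCI. The difference was 0.75 in place of 0.89 for MUS81 to EME1 and 0.74 in place of 0.86 for PALB2 to BRCA2.

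**Figure D3:**
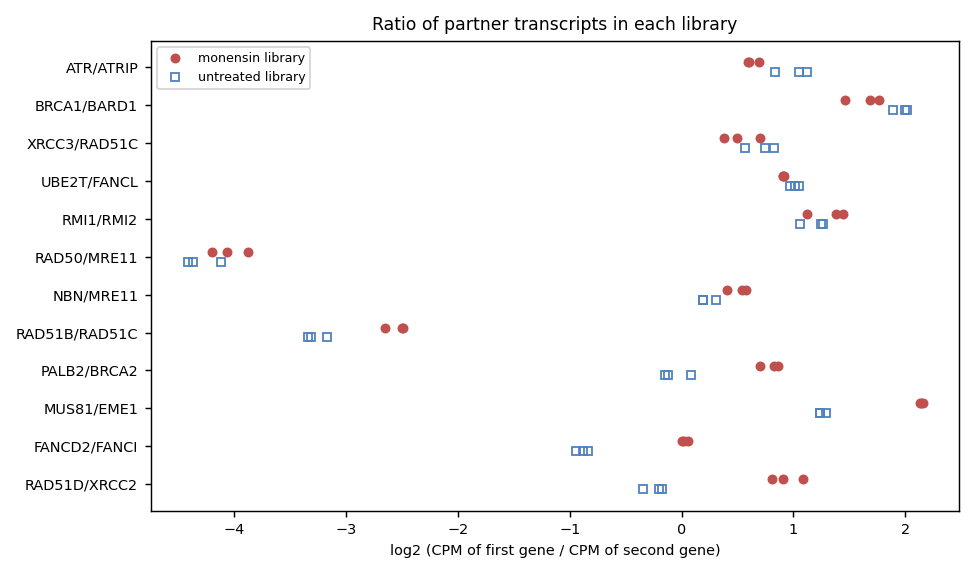
Log2 ratio of the CPM of 2 genes with partnered products (x axis) in each library, for 12 pairs ordered by the difference between groups. Filled circles are monensin libraries and open squares untreated libraries; RAD51D/XRCC2, FANCD2/FANCI, MUS81/EME1 and PALB2/BRCA2 lie clearly to the right after monensin.

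Scaled per exonic length, UBE2T was the most abundant of the 43 transcripts in both groups, at 97.7 ± 2.12 TPM after monensin and 154 ± 6.71 in untreated cells (SD, n = 3 each). TOPBP1 came next, at 66.5 ± 3.16 TPM after monensin and 121 ± 7.78 TPM in untreated cells. MUS81, at 66.0 ± 2.06 TPM after monensin, did not differ from TOPBP1 there beyond their spread. EXO1 stood at 22.7 ± 0.952 TPM after monensin, and at 93.6 ± 6.92 TPM it ranked behind only UBE2T and TOPBP1 in untreated cells. These ranks depend on the union exon lengths used. MSH6, with 10993 exonic bases, averaged 200 CPM in untreated cells, against 117 CPM for EXO1 with 4140. The least abundant were DMC1, RAD50, RAD51B and RAD54B, with untreated means between 0.845 and 4.72 TPM, and the values for RAD50 and RAD54B leave out shared exons. Across the 43 genes, the SD between libraries of a group was 4.79% of the mean after monensin and 4.62% in untreated cells, as medians, and it reached 41.9% for DMC1 in untreated cells.

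The authors' deposited table of 2410 regulated genes, all with an absolute log2 fold change above 1, held 19 of the 43, and all 19 had negative values. These were the same 19 genes that fell at least 2-fold in the counts. The count files hold 58395 genes, and how many of the 2410 had negative values was not counted. Of all tested genes, 3.83% were called lowered at least 2-fold in the fit made here. The authors' values belong to the same 6 samples and use a like limit on fold change, so the match is no independent support. In the authors' deposited table EXO1 stood at -2.25, BRIP1 at -2.01 and XRCC2 at -1.73. The values nearest the limit of 1 were -1.02 for FANCM, -1.03 for MSH6 and -1.03 for RMI2.

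Transcripts of the 43 genes were poorer in GC and longer than most, with a median GC content of 43.4%, against 49.7% for all tested genes, and a median of 6068 exonic bases, against 4255. Removing each library's trend on GC content and length moved 34 of the 43 log2 fold changes upward, by up to 0.35, and left 38 genes lowered and 2 raised, with a median of -0.70. The log2 fold changes of MRE11, RAD50, NBN, PALB2, RAD51C, FANCF, FANCD2, ATM, ATR and CHEK2 came more than 1.5 times nearer to 0, and those of RAD51B and FANCE moved as much farther from it. RAD51C stood at -0.14 (adjusted p = 0.0271), CHEK2 at -0.16 (adjusted p = 0.0285) and NBN at -0.18 (adjusted p = 0.000454) in that fit. EXO1 and BRIP1 remained the lowest, at -2.06 and -1.71. Whether these trends are technical or part of the response was not tested.

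**Figure D4:**
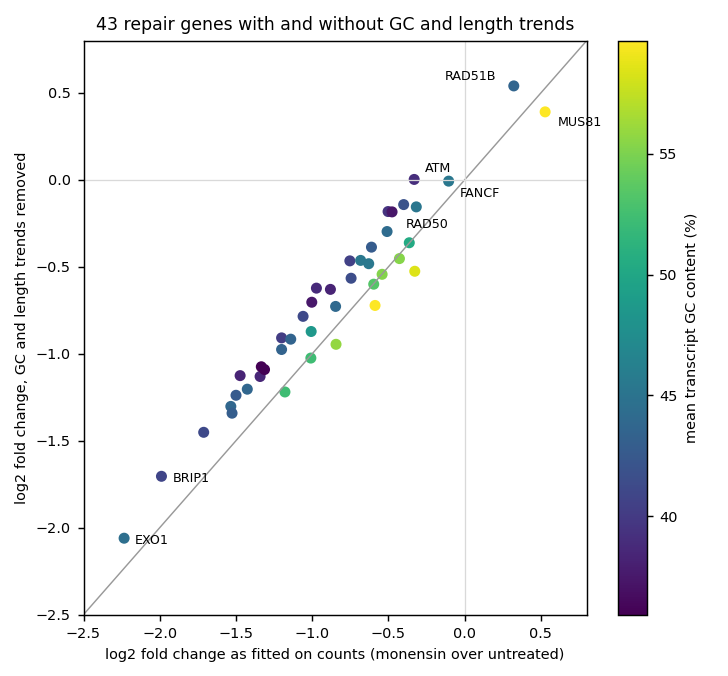
Log2 fold change of each of the 43 genes as fitted on counts (x axis) against the value once each library's GC content and length trends were removed (y axis), coloured by mean transcript GC content in percent; the diagonal marks equal values. Most genes of low GC content lie above the diagonal, ATM reaches 0.00 and RAD50 -0.18, while EXO1 and BRIP1 stay below -1.5.

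The E2F type motif in the promoters printed above was common among these genes. Of the 43, 39 had a RefSeq window of 250 bases before to 50 bases after a start of transcription, and a gene with several starts counted once. In 24 of the 39 (61.5%) a window held 1 of the 4 E2F type motifs, against 15.3% of the 27303 genes in the table and 24.7% of the 10554 of them tested here. Windows of the 43 genes had a median GC content of 63.3%, against 64.7% for those of tested genes. The motif stood in 12 of 16 genes that fell at least 2-fold and in 12 of the other 23, and the median log2 fold changes with and without it were -0.94 and -0.61. A CCAAT box was found in 51.3% of these genes, against 42.9% of tested genes, and a CHR element, searched as TTTGAA and as TTCGAA, in 12.8%, against 15.5%. EXO1 and FANCF hold the same motif, TTCGCGC, at bases 5 and 1 after the start (counted from 0 at the start), with log2 fold changes of -2.23 and -0.11. BRCA2, FANCB, FANCM and CHEK1, all lowered at least 2-fold, hold none of the 4 E2F type motifs in their windows. A match describes these letters and shows no binding.

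Other repair genes were fitted together with the 43. Of 98 genes in 7 further lists, each counted once, 96 were tested. Of these, 60 (62.5%) were lowered and 16 (16.7%) raised, with a median log2 fold change of -0.27. Among all tested genes, 33.7% were lowered and 34.1% raised, and the counts per list below are to be read beside these shares. Other checkpoint genes were lowered in 12 of 14 and raised in 1, with a median of -0.60. H2AFX, the histone marked at breaks, averaged 129 ± 11.2 CPM after monensin and 238 ± 8.92 CPM in untreated cells (SD, n = 3 each). Other genes of recombination had 10 of 17 lowered and 3 raised, other Fanconi genes 10 of 12 lowered and 1 raised, and other mismatch repair genes 5 of 5 lowered, or 3 of 5 in the fit without GC and length trends. USP1, which takes ubiquitin off FANCD2, fell by 0.98 on the log2 scale (SE 0.05). Base excision repair had 9 of 18 lowered and 5 raised, nucleotide excision repair 10 of 19 lowered and 3 raised, and end joining 6 of 13 lowered and 3 raised, with medians of -0.15, -0.12 and -0.10. Within end joining, PRKDC, the most abundant called gene, fell by 1.47 on the log2 scale (SE 0.07). The Ku subunits XRCC5 and XRCC6 fell by 0.88 and 0.64 (SE 0.04 each). The summed level of the end joining list was 1739 to 1775 CPM in monensin libraries and 3097 to 3421 CPM in untreated libraries. Most of this sum came from PRKDC, XRCC6 and XRCC5, which averaged 1293, 766 and 753 CPM in untreated cells. It therefore does not speak for the other genes of the list, whose median over all 13 tested was -0.10, with 4 not called. Without monensin library 2, raised genes numbered 2 among other Fanconi genes and 1 in nucleotide excision repair, and without untreated library 3 they numbered 2 among other Fanconi genes. No test of the difference between lists was made.

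**Figure D5:**
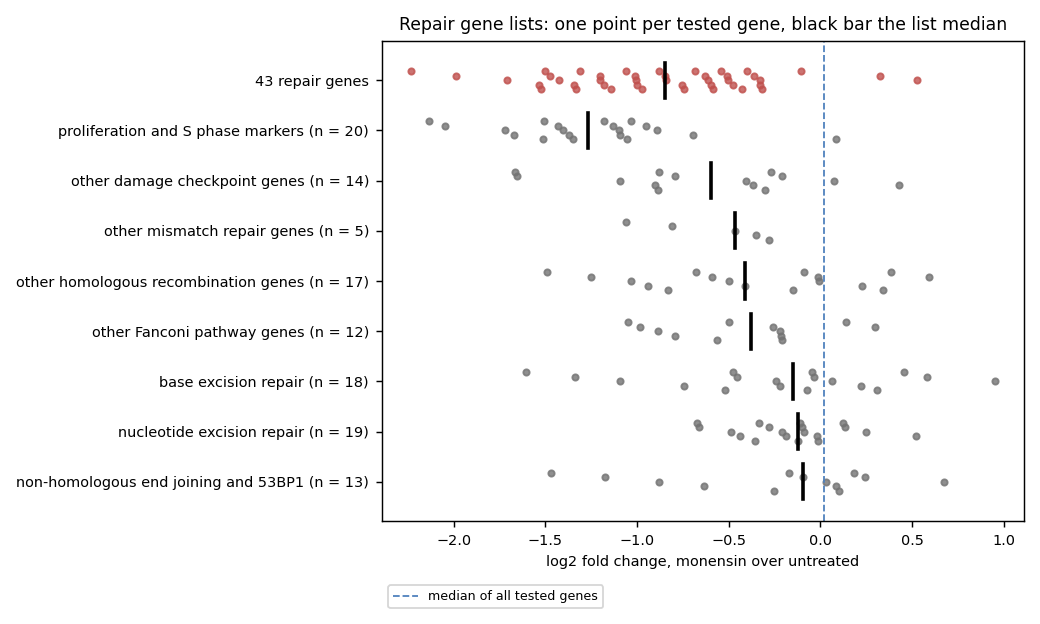
Log2 fold change (x axis, monensin over untreated) of every tested gene in the 43 repair genes and in 8 other lists, 1 point per gene; black bars are list medians and the dashed line the median of all tested genes. The median of the 43 is -0.85, between those of the proliferation markers (-1.27) and the other checkpoint genes (-0.60). The medians of the remaining lists lie nearer to 0, with single genes spread widely around them.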

How the data were processed

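RNA was sequenced from 6 THP-1 samples, and groups were taken from the treatment label. Trizol served to isolate RNA, and a strand-preserving NEBNext kit gave libraries read once over 75 nt, per the labels' protocols. The authors deposited raw counts of reads per Ensembl gene; the submitters' processing notes name Trimmomatic 038, HISAT2 2.1.0, HTSeq 0.11.1, DESeq2 1.22.2 and GRCh38. The authors also deposited log2 fold changes of 2410 genes. Which annotation was counted is not given; GENCODE 29 holds 99.79% of the gene identifiers. The strand setting is not stated either: of 399 genes whose exons lie wholly inside opposite-strand exons of another gene, 83.7% had counts, against 1.27% of 630 inside same-strand exons, so counting used strand.

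Tally lines were left out. Counts were fitted with edgeR 4.0.16 in R 4.3.3 (low-count filter by group, TMM, quasi-likelihood F test, treatment as the only term), with Benjamini-Hochberg adjustment over 16542 genes. Standard errors come from the coefficient and its F statistic. CPM uses TMM-scaled library sizes; TPM uses union exon lengths. Alternatives were RLE factors, total counts, other filters, DESeq2 1.42.0, a replicate block, libraries left out, an adjusted p under 0.01, GC and length trends removed, and no mitochondrial genes. The tests were tried on simulated counts. Members, lists and tests were chosen with earlier results of these data known. All 43 genes are named; of other lists, MKI67, PCNA and up to 3 of the most abundant called genes could be named, while CDT1 was named after its values were seen; a further marker list is not reported here. Depth limits DMC1, with 7 to 32 counts per library. Same-numbered samples did not deviate together, so the numbers were not used as pairs.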

Additional observations from a re-analysis of the deposited data

How the results depend on the processing

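Of 15 alternative settings, all kept 38 to 40 of the 43 genes lowered, and of 644 gene values 638 kept their direction and their side of the threshold. The count of raised genes was 1 in place of 2 with DESeq2 and at an adjusted p under 0.01, and ranged from 1 to 2 with each library left out; RAD51B was the gene lost each time. With a library left out, 40 genes were lowered each time, and the median ranged from -0.88 to -0.82. The median was -0.76 with total counts alone, which moved the median of all tested genes to 0.11, and -0.70 in the fit without GC and length trends, which also turned ATM to 0.00235. The count of genes lowered at least 2-fold ran from 13 with those trends removed to 20. With the replicate number as a block, 40 genes were lowered and 2 raised, as without it; same-numbered libraries had correlations of deviations of -0.119, 0.140 and 0.0414, so the numbers do not show pairing. In the other lists, several counts moved by over 1.5 times. Raised end joining genes numbered 5 with total counts alone and 1 with DESeq2, in place of 3. Raised nucleotide excision repair genes numbered 1 in place of 3 with DESeq2, without monensin library 2 and at an adjusted p under 0.01. Raised Fanconi genes numbered 2 in place of 1 with total counts alone, the stricter filter, the replicate block and the trends removed, and without monensin library 2 or untreated library 3. Raised checkpoint genes numbered 2 in place of 1 with total counts alone and with the trends removed, and 1 proliferation marker in place of 0 was raised with total counts alone and the stricter filter. Removal of the trends left 3 of 5 other mismatch repair genes lowered. Depth limits DMC1, which the stricter filter left untested, and shared exons limit RAD50, RAD54B and ATRIP.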
